A study of Mus musculus with 38 samples.

Results

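Sorted mouse microglia were profiled on day 1 after DNL919, an antibody that activates human TREM2, and compared with microglia of mice that received vehicle solution and were collected on the same day. The comparison used the 14 libraries whose titles name DNL919 at 10 mg/kg on day 1 (8 libraries) or Vehicle on day 1 (6 libraries), out of 38 libraries in the series. All of these mice were C57BL/6J, were 3 months old, carried human TREM2 on a hemizygous bacterial artificial chromosome and were homozygous for a transferrin receptor knock-in with human sequence. The DNL919 group received 10 mg/kg of the antibody and the Vehicle group received the solution without antibody. Another group of day 1, with 8 libraries, received 10 mg/kg of ATV:DNP02, which was taken here as the isotype control on the same antibody transport vehicle (ATV:ISO in the study), and DNL919 was taken as the study's ATV:TREM2. The transport vehicle is a site in the constant part of the antibody that binds the human part of the transferrin receptor and so carries the antibody from blood into brain.

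The mice were collected in 4 batches. DNL919 had 2 libraries in each batch and Vehicle had 1, 2, 2 and 1. All mice of batches 1 and 2 were female and all of batches 3 and 4 male, so that sex cannot be told apart from these pairs of batches. Flow cytometry was used to sort living cells positive for CD11b, a gate that also admits other myeloid cells. The tissue is described in one place as cortex with hippocampus and in another as brain lacking the cerebellum. The human transgene adds a receptor to mice that still carry their own, its sequence is not among the genes counted, and Trem2 below is the mouse gene. Replicates are numbered in the order of the labels, which do not say that each library is a separate animal, and p-values measure the spread between these libraries.

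TREM2 is a receptor of microglia that binds lipids and lipoproteins and signals through the adaptor DAP12 (Tyrobp) and the kinase SYK to phospholipase C gamma 2, PI3 kinase and mTOR. In mouse models of disease, microglia that signal through TREM2 lower homeostatic genes such as P2ry12 and raise a disease-associated programme with Cst7, Lpl and Itgax. Microglia divide rarely in the healthy adult brain, and entry into the cycle is marked by genes of DNA replication under E2F control. Type I interferon signals to genes that carry an interferon-stimulated response element in their promoters.

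The deposited sheet holds counts of reads per gene. CPM below are a library's counts per 1 M of its total (M, mega) after scaling by the trimmed mean of M values (TMM). Adjusted p are two-sided Benjamini-Hochberg values of limma-voom with group and batch as terms, a gene was called at an adjusted p under 0.05, and only called genes are said to have risen or fallen. Log2 fold changes are DNL919 over Vehicle and are given ± the standard error of the fit.

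DNL919 libraries were deeper than Vehicle libraries. They held 4.17 ± 1.36 M counts on average (SD, n = 8), and Vehicle libraries held 2.27 ± 0.491 M (SD, n = 6). This difference had an exact permutation p of 0.00333 (two-sided, adjusted p = 0.00333 over 5 library measures). Noncoding transcripts took 3.37% ± 0.974 of the counts after DNL919 (SD, n = 8) and 7.81% ± 1.77 in Vehicle (SD, n = 6; exact permutation p = 3.33e-04, the smallest that 3003 allocations allow, adjusted p = 8.33e-04). The groups did not overlap in this share, which ranged from 2.33% to 5.29% and from 5.55% to 9.75%. The difference had the same sign in each of the 4 batches. The share was added as a covariate in an alternative fit, and its part in the results below was not tested otherwise. Because the groups did not overlap in the share, that fit cannot tell the share apart from the treatment, whether a call is kept or lost. That covariate left 937 genes called up and 670 called down, against 2127 and 1613 without it.

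Markers of microglia were present in every library. Tmem119 lay between 553 and 1356 CPM in Vehicle and between 466 and 2864 CPM after DNL919, and C1qa between 2638 and 3478 CPM and between 2291 and 4351 CPM. Itgam, which encodes CD11b, lay between 84.9 and 153 CPM and between 84.6 and 229 CPM. Of 11 tested members of this list 1 rose, Aif1 (median 1777 to 2861 CPM), and 3 fell, among them P2ry12 (4192 to 1443 CPM). Markers of other cells were summed over each list. Those of monocytes came to between 69.8 and 323 CPM in Vehicle and between 94.6 and 374 CPM after DNL919 with no tested member called, and those of border-associated macrophages to between 1039 and 2896 CPM and between 762 and 2302 CPM with 1 rise and 1 fall of 13. The sums of astrocyte (245 to 476 CPM against 136 to 311 CPM), oligodendrocyte (106 to 223 against 66.9 to 183 CPM), neuron (41.6 to 80.2 against 18.1 to 47.5 CPM) and neutrophil markers (158 to 613 against 64.8 to 325 CPM) had lower medians after DNL919, with 1 fall in each list and no rise. The neutrophil marker that fell was Csf3r (median 191 to 84.5 CPM), which made up much of that sum. S100a8 lay between 0 and 252 CPM in Vehicle and between 0 and 155 CPM after DNL919. Slc1a3 had the highest median of the astrocyte markers (298 to 121 CPM). Single genes can thus carry a sum, which does not count cells. Dendritic cell markers also had a lower summed median (1 fall). Most of that sum was Siglech (median 1975 to 1060 CPM), which is also on the microglia list, while Cd209a went from 6.74 to 15.9 CPM. Endothelial markers had a higher summed median (1 rise). Most of it was Bsg (492 to 713 CPM), while Pecam1 went from 8.25 to 3.19 CPM. Cd3d, Cd3g and Nkg7, which define T or NK cells, had counts only in DNL919 replicate 2 (25.9, 12.8 and 23.5 CPM). Il7r, the interleukin-7 receptor and the one member of that list with enough counts to be tested, fell by 2.61 (adjusted p = 1.86e-05), from between 11.7 and 57.2 CPM to between 1.32 and 11.6 CPM, and the groups did not overlap. The part of these cells in the results was not tested.

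Of the 8 DNL919 libraries, 2 stood apart from the other 6. Replicate 8 (batch 4) lay nearest to Vehicle: it had the lowest of the 8 values in 907 of the 2127 genes that rose and the highest in 827 of the 1613 that fell. Replicate 5 (batch 3) was the lowest in 794 of the genes that rose. Without both libraries, an alternative chosen after the data were seen, 2163 genes were called up and 1730 down. Without both, the medians of 52 of 57 gene lists kept their sign, and those of the other 5 lay between -0.01 and 0.10 with all libraries. Values without both are given below for a part of the lists.

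Of 11189 genes tested, 3740 (33.4%) were called between DNL919 and Vehicle on day 1, of which 2127 (19.0%) had risen and 1613 (14.4%) had fallen. By fitted fold, 612 genes rose at least 4-fold and 236 fell at least 4-fold, and 145 rose at least 16-fold against 5 that fell as far. Of the genes tested, 48 had no Vehicle count, so that they could only rise and their folds have no upper bound. The Vehicle group also held 13.6 M counts against 33.3 M after DNL919. Sizes of rises and falls are thus not measured alike. In 748 genes (6.69%) every DNL919 library lay above every Vehicle library, and in 274 genes (2.45%) every one lay below. The median log2 fold change over all genes tested was 0.03. Protein-coding genes rose more often, with 2066 up and 1446 down of 10120, and noncoding genes fell more often, with 39 up and 147 down of 833 and a median of -0.75. In sorted bulk RNA a smaller share of cells with a transcript and less of it per cell cannot be told apart.

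**Figure D1:**
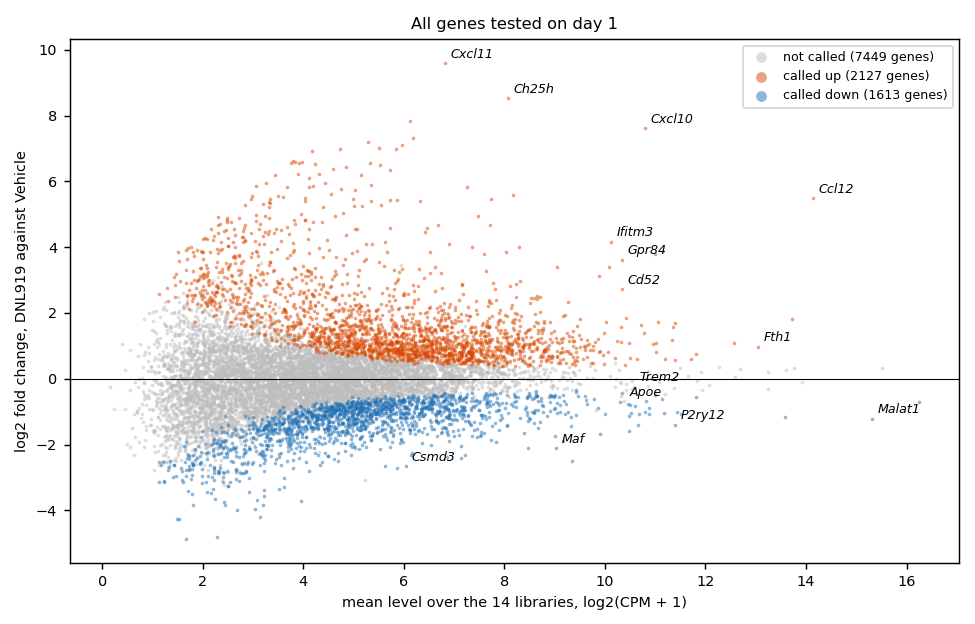
Every gene tested, by its mean level over the 14 libraries (x axis, log2 of CPM + 1) and its log2 fold change between DNL919 and Vehicle (y axis). Orange and blue points are the 2127 genes called up and the 1613 called down, and Cxcl11, Ch25h, Cxcl10 and Ccl12 lie above the rest at their levels.

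Interferon-stimulated genes made one of the broadest rises. Of 55 tested members 48 rose and none fell, with a median log2 fold change of 2.42, and in 25 the groups did not overlap. Ifitm3, which restricts entry of viruses, lay between 57.3 and 155 CPM (median 100.0) in Vehicle and between 471 and 2586 CPM (median 2069) after DNL919, and rose by 4.16 ± 0.49 on the log2 scale (adjusted p = 6.20e-09). Bst2, the membrane protein tetherin, went from 51.7 to 63.3 CPM (median 54.3) in Vehicle to between 149 and 429 CPM (median 338), and rose by 2.41 ± 0.26 (adjusted p = 7.05e-10). All 8 DNL919 libraries lay above all 6 Vehicle libraries for both genes. Ifit1, an RNA-binding antiviral protein, had no count in most Vehicle libraries (median 0, highest 11.1 CPM) and lay between 36.3 and 191 CPM after DNL919 (median 126), with a log2 fold change of 7.31 ± 1.41 (adjusted p = 6.63e-05). Phf11a, a PHD finger gene of mouse interferon responses, rose by 5.89 ± 0.87 (adjusted p = 8.25e-07), from at most 3.43 CPM to at least 19.6 CPM. Ifit1 and Ifit3b, like Phf11a and Phf11b, belong to families of similar copies, among which reads may be divided. Leaving out single Vehicle libraries moved Ifit1 to 8.09 (without replicate 5) or 8.15 (without replicate 6) and Phf11a to 5.20 (without replicate 1) or 5.31 (without replicate 2). Oasl1, chosen after its value was seen, had no count in Vehicle and a median of 28.2 CPM after DNL919. The counts of all DNL919 libraries pooled put it at least 159-fold above a floor of 3 counts over the Vehicle group (0.212 CPM), and folds above the floor are given on these pooled counts throughout. Its fitted log2 fold change of 6.93 was 6.33 without DNL919 replicate 5.

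The interferon rise was smaller in DNL919 replicate 8, which had the lowest value of the 8 in 42 of the 48 rising genes. Relative to the Vehicle mean, the median of the list was 1.08 in that library and between 2.11 and 2.76 in the other 7. Without replicates 5 and 8 the median over the list was 2.57. With the noncoding share as a covariate the median was 1.98, and 28 members were called up.

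Regulators of the pathway moved less uniformly than its targets. Of 23 tested receptors and signal transducers 5 (21.7%) rose and 2 (8.70%) fell, against 19.0% and 14.4% of all genes tested. Their median was -0.18. Irf7, the factor that amplifies type I interferon, rose by 4.57 ± 0.98 (adjusted p = 2.72e-04), from between 1.64 and 15.5 CPM to between 43.5 and 267 CPM, and was not called with the noncoding covariate. Ifngr1, a subunit of the receptor for interferon gamma, fell by 0.88 ± 0.18 (log2; adjusted p = 2.23e-04), from a median of 1203 CPM to 599.9 CPM, and Irf2, a factor that competes at response elements, fell by 0.65 ± 0.20 (adjusted p = 0.00912). Ifnb1, the gene of interferon beta and chosen after its value was seen, was uneven: its DNL919 libraries ranged from 0 to 218 CPM around a median of 22.7 CPM, its Vehicle libraries from 0 to 3.31 CPM, and its log2 fold change was 5.05 ± 1.65 (adjusted p = 0.0153). That value was 4.33 and no longer called without Vehicle replicate 1, 5.80 without Vehicle replicate 4 and 5.75 without DNL919 replicate 5.

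The promoters of 40 of the 55 tested interferon-stimulated genes were matched to RefSeq (build GRCm38.p6, 250 bases before to 50 after the start), and 25 of these (62.5%) held GAAANNGAA on either strand, the core of an interferon-stimulated response element. Counted per promoter, the same letters were in 8.56% of 32851. Counted per gene, as for the list, they were in any promoter of 9.08% of 7841 tested genes. The promoters of the 3 called members with the smallest p that hold the motif are shown so that its place can be seen, with the matches in capitals and overlapping matches joined.
Bst2 (chr8:71537423-71537722, minus strand): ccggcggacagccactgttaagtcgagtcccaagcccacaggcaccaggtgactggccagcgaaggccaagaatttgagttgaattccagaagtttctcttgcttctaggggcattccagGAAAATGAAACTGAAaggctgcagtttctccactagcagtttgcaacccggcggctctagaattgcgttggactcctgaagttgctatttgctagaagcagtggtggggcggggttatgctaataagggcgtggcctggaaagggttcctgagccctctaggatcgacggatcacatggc
Ifitm3 (chr7:141010695-141010994, minus strand): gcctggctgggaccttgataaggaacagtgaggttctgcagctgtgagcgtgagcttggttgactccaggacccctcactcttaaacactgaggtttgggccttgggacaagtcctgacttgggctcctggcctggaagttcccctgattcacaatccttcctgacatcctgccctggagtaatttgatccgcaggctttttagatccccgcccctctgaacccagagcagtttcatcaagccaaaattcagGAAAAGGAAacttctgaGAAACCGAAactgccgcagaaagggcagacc
Phf11b (chr14:59341281-59341580, minus strand): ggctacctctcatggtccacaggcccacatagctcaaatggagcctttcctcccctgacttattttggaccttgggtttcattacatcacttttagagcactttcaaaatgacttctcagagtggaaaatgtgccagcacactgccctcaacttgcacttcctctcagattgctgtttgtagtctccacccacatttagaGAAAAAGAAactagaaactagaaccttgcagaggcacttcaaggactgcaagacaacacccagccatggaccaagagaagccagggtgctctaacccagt
In Bst2 2 matches overlap upstream of the start, in Ifitm3 2 matches lie just after the start, and in Phf11b 1 match lies before it. These are matches of letters and no measure of binding.

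Of 18 tested chemokines 10 rose and none fell, with a median of 1.90. Replicate 8 was the lowest DNL919 library for 8 of the 10, and without replicates 5 and 8 the median was 1.95, with 10 rises and 2 falls. Cxcl10 (chr5:92346638-92348889) and its neighbour Cxcl11 (chr5:92359544-92365485) encode ligands of CXCR3, the receptor of activated T cells. Cxcl10 lay between 6.72 and 33.6 CPM in Vehicle (median 14.0) and between 544 and 5608 CPM after DNL919 (median 3203), a log2 fold change of 7.62 ± 0.70 (adjusted p = 2.91e-11). Replicate 8 held the value of 544 CPM, and the other 7 DNL919 libraries lay at 2005 CPM or more. Cxcl11 had no count in any Vehicle library and lay between 18.1 and 294 CPM after DNL919 (median 245), and its pooled counts were at least 851-fold above the floor (adjusted p = 1.84e-06). Cxcl13, the B cell attractant, and Cxcl9, the third CXCR3 ligand, were chosen after their values were seen. Both had no Vehicle count, and their DNL919 libraries ranged from 0 to 273 CPM and from 0 to 23.7 CPM (pooled counts at least 349-fold and 31.7-fold above the floor). The fitted log2 fold change of Cxcl13, 7.01, was 7.59 without Vehicle replicate 6.

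Attractants of monocytes and other macrophage-derived chemokines were among the rises. Ccl12 (chr11:82101845-82103400), a mouse monocyte attractant, lay between 119 and 1655 CPM in Vehicle (median 640.2) and between 4714 and 52964 CPM after DNL919 (median 33261), a log2 fold change of 5.48 ± 0.42 (adjusted p = 2.29e-13). Ccl2, the CCR2 ligand encoded nearby and chosen after its value was seen, rose by 3.78 ± 0.44 (adjusted p = 6.44e-09), from a median of 292 CPM to 3837 CPM. Ccl3 (chr11:83647844-83649355) and Ccl4 (chr11:83662584-83664683) were already high in Vehicle. Ccl3 rose from a median of 1224 CPM (681 to 2061) to 3547 CPM (2321 to 5296), by 1.69 ± 0.20 (adjusted p = 5.38e-09), and Ccl4 from 5982 CPM (3874 to 7758) to 19970 CPM (12173 to 27728), by 1.81 ± 0.20 (adjusted p = 2.59e-09). Cxcl16, a membrane-bound chemokine and scavenger of oxidised lipid, rose by 3.40 ± 0.28 (adjusted p = 1.12e-12), from between 46.8 and 98.2 CPM to between 363 and 1090 CPM. For Ccl12, Ccl2, Ccl3, Ccl4 and Cxcl16 the groups did not overlap. Without a filter on low counts, in a fit of 25246 genes, Cxcl10, Ccl12, Ccl2, Ccl3 and Ccl4 had log2 fold changes of 7.53, 5.61, 3.49, 1.54 and 2.33 but were not called (adjusted p between 0.112 and 0.734).

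Among 27 tested cytokines and growth factors 14 rose and 5 fell. Tnf lay between 63.9 and 212 CPM in Vehicle (median 199.9) and between 1260 and 2060 CPM after DNL919 (median 1925), and its rise of 3.39 ± 0.24 (adjusted p = 1.83e-14) included replicate 8. Il1a rose by 1.86 ± 0.20 (adjusted p = 5.94e-10), from a median of 589.9 CPM to 1985 CPM, and Tnfsf9, the ligand of the costimulator 4-1BB, by 3.79 ± 0.50 (adjusted p = 9.61e-08), from 24.1 CPM to 327 CPM. Il6 and Il1b were chosen after their values were seen, and rose by 1.88 ± 0.52 (adjusted p = 0.00429) and 1.69 ± 0.32 (adjusted p = 5.22e-05). In the other direction, Il16, a ligand of CD4, fell by 1.73 ± 0.26 (adjusted p = 9.58e-07), from a median of 88.7 CPM to 24.3 CPM, and Tnfsf12, which encodes TWEAK, fell by 1.48 ± 0.34 (adjusted p = 7.26e-04), from 12.6 CPM to 4.90 CPM.

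Of 22 tested genes of the NF-kB pathway and its targets 9 rose and 2 fell. Sod2, the mitochondrial superoxide dismutase, rose by 1.71 ± 0.22 (adjusted p = 3.85e-08), and Nfkbia, the inhibitor that NF-kB itself induces, rose by 0.57 ± 0.11 (adjusted p = 6.54e-05), from between 1788 and 2461 CPM to between 2575 and 3547 CPM. Rel, which encodes the subunit c-Rel, fell by 1.27 ± 0.25 (adjusted p = 9.96e-05), from between 105 and 186 CPM to between 27.2 and 94.3 CPM. Of 22 tested nucleic acid and Toll-like sensors 7 (31.8%) rose and 3 (13.6%) fell, against 19.0% and 14.4% of all genes tested. Tlr2, which senses bacterial lipoproteins, rose by 2.92 ± 0.28 (adjusted p = 1.07e-10; median 43.4 to 349 CPM), and Cd14, its co-receptor, by 1.73 ± 0.22 (adjusted p = 3.34e-08; 817 to 3059 CPM). Tlr7, the endosomal sensor of single-stranded RNA, fell by 0.63 ± 0.18 (adjusted p = 0.00561; 172 to 107 CPM). The NF-kB median was 0.87, and 0.66 without replicates 5 and 8.

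**Figure D2:**
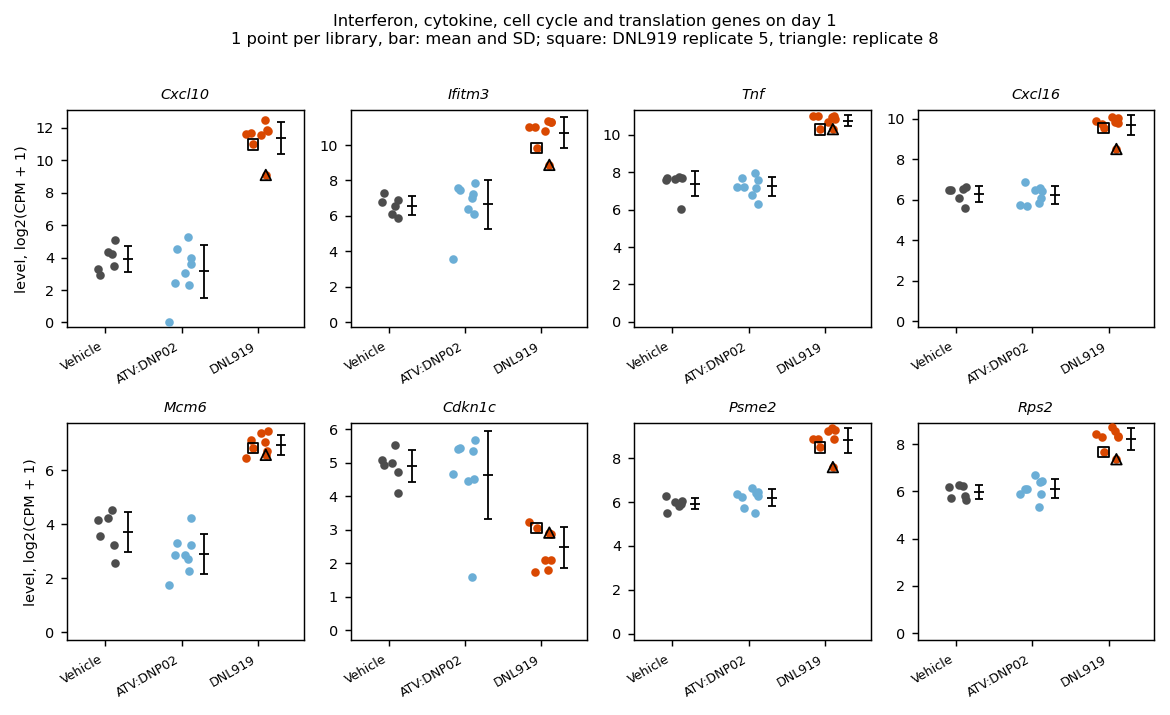
Levels of 8 genes in every library of day 1 (y axis, log2 of CPM + 1; each point is 1 library, the bar is the mean and SD of the log2 values), in Vehicle (6 libraries), ATV:DNP02 (8) and DNL919 (8). DNL919 libraries lie above all Vehicle libraries for Cxcl10, Ifitm3, Tnf, Cxcl16, Mcm6, Psme2 and Rps2 and below them for Cdkn1c, and the triangle of replicate 8 lies lowest of the DNL919 libraries for Cxcl10 and Ifitm3.

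Peptide loading for MHC class I rose and class II genes did not move as a group. Of 22 class I and loading genes 15 rose and none fell, with a median of 0.98. Psme2, a subunit of the proteasome activator PA28, rose by 2.88 ± 0.24 (adjusted p = 1.12e-12), from between 45.0 and 75.3 CPM to between 192 and 654 CPM, and its partner Psme1 by 1.40 ± 0.17 (adjusted p = 9.31e-09). The class I median was 0.42 under the noncoding covariate, and 3 members were called up. Of 13 class II and costimulation genes 3 rose and 2 fell, where 19.0% of all genes tested rose and 14.4% fell. Cd74, the invariant chain, lay between 106 and 828 CPM in Vehicle and between 143 and 870.3 CPM after DNL919, with a log2 fold change of -0.03 ± 0.54 (adjusted p = 0.972). Among the rises, the costimulator Cd40 went from at most 2.46 CPM to between 7.98 and 84.1 CPM (6.45 ± 0.90, adjusted p = 2.23e-07), and Cd274, which encodes the inhibitory ligand PD-L1, from at most 6.14 CPM to between 6.16 and 40.1 CPM (3.34 ± 0.64, adjusted p = 6.49e-05).

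Genes of DNA replication rose in nearly every member. Of 49 tested 45 rose and none fell, the median was 3.65, the highest among the 45 lists other than markers, and in 35 members the groups did not overlap. Mcm6 and Mcm5 encode subunits of the replicative helicase. Mcm6 lay between 4.91 and 22.3 CPM in Vehicle (median 13.9) and between 87.8 and 175 CPM after DNL919 (median 121), a log2 fold change of 3.35 ± 0.38 (adjusted p = 2.70e-09), and Mcm5 rose by 6.19 ± 0.83 (adjusted p = 1.05e-07), from at most 3.61 CPM to at least 27.9 CPM. Hells, a chromatin remodeller of dividing cells, lay at 2.46 CPM or less in Vehicle and between 37.2 and 133 CPM after DNL919 (6.99 ± 0.99, adjusted p = 3.56e-07). Cdc6, which loads the helicase, had no Vehicle count and a median of 14.5 CPM after DNL919, and its pooled counts were at least 78.8-fold above the floor (adjusted p = 1.92e-09). Pclaf, a partner of the sliding clamp PCNA, was at 0 in most Vehicle libraries and between 12.7 and 175 CPM after DNL919 (6.51 ± 1.44, adjusted p = 4.19e-04), but was not called in males alone and had a log2 fold change of 7.35 without Vehicle replicate 5. Replicate 5 rather than replicate 8 was the lowest DNL919 library in this list, for 25 of the 45 rising genes, and without both the median was 3.73. The noncoding covariate left a median of 3.73 and 41 members called up.

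RefSeq promoters were matched for 39 of the 49 tested replication genes, and 18 (46.2%) held an E2F-type sequence (TTTGGCGC, TTTCCCGC, TTTGGCGG or TTTCCCGG, either strand). Counted per promoter, these letters were in 3.32% of all 32851. Counted per gene, as for the list, they were in any promoter of 7.18% of 7841 tested genes. The 3 called members with the smallest p that hold one are shown for the place of the match, in capitals.
Cdc6 (chr11:98907901-98908200, plus strand): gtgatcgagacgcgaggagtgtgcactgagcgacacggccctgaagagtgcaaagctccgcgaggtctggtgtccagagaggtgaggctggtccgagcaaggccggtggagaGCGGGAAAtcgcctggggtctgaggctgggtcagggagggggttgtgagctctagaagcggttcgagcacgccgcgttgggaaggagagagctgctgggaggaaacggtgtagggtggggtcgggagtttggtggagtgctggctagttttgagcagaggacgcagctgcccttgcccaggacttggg
Mcm6 (chr1:128359656-128359955, minus strand): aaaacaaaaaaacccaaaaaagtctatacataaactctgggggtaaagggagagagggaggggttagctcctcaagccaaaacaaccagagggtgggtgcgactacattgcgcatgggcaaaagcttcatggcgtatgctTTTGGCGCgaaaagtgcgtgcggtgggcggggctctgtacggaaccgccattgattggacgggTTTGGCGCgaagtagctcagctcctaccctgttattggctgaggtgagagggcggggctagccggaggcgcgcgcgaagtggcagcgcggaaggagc
Mcm5 (chr8:75109259-75109558, plus strand): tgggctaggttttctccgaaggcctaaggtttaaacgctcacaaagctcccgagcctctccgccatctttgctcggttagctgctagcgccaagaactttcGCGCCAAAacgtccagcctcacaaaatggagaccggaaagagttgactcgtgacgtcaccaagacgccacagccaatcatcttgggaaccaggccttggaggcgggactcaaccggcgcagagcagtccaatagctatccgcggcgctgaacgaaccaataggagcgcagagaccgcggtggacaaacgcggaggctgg
Mcm6 holds 2 matches and Cdc6 and Mcm5 hold 1 each, and in all of them the match begins before the start.

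The genes of mitosis followed those of replication at lower levels. Of 54 tested 44 rose and none fell, with a median of 3.55, which was 3.60 when members without a Vehicle count were set to their lower bound. Pbk, a mitotic kinase, had no Vehicle count and lay between 8.34 and 30.2 CPM after DNL919, with pooled counts at least 101-fold above the floor (adjusted p = 6.61e-08). Mki67, the proliferation marker Ki-67 and chosen after its value was seen, had 1 count in all over the Vehicle libraries and lay between 1.45 and 14.2 CPM after DNL919 (4.43 ± 1.01, adjusted p = 5.70e-04). Tubulins of the spindle and cytoskeleton rose from higher levels, Tuba1b by 2.14 ± 0.21 (adjusted p = 1.56e-10; median 92.5 to 414 CPM) and Tubb5 by 1.74 ± 0.17 (adjusted p = 1.17e-10; 103 to 389 CPM).

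Of 22 tested genes that control the G1 to S step 12 rose and 3 fell. Ccne2 and Ccne1 encode E cyclins, the partners of CDK2. Ccne2 went from a Vehicle median of 0 (highest 8.79 CPM) to between 21.5 and 109.9 CPM (7.20 ± 1.16, adjusted p = 3.38e-06; 8.18 without Vehicle replicate 5), and Ccne1 from no count to a median of 12.1 CPM, with pooled counts at least 51.2-fold above the floor (adjusted p = 3.15e-06). Cdk4, the kinase of D cyclins, rose by 1.61 ± 0.22 (adjusted p = 1.10e-07; median 56.5 to 159 CPM). Of the cyclin-dependent kinase inhibitors, Cdkn1c (p57) fell by 2.54 ± 0.46 (adjusted p = 2.23e-05), from between 16.0 and 44.7 CPM to between 2.31 and 8.44 CPM, and Cdkn1b (p27) fell by 1.90 ± 0.44 (adjusted p = 5.92e-04; median 17.0 to 2.99 CPM). Cdkn1a (p21), a target of p53, moved the other way and rose by 2.18 ± 0.31 (adjusted p = 4.87e-07; 41.8 to 186 CPM). Of 24 tested p53 targets and cell death genes 7 (29.2%) rose and 4 (16.7%) fell, against 19.0% and 14.4% of all genes tested. Among them Bcl2a1b, a survival factor that shares reads with near-identical copies, rose by 1.11 ± 0.20 (adjusted p = 1.77e-05). Bcl2l11, which encodes the killer BIM, fell by 1.28 ± 0.38 (adjusted p = 0.00795).

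**Figure D3:**
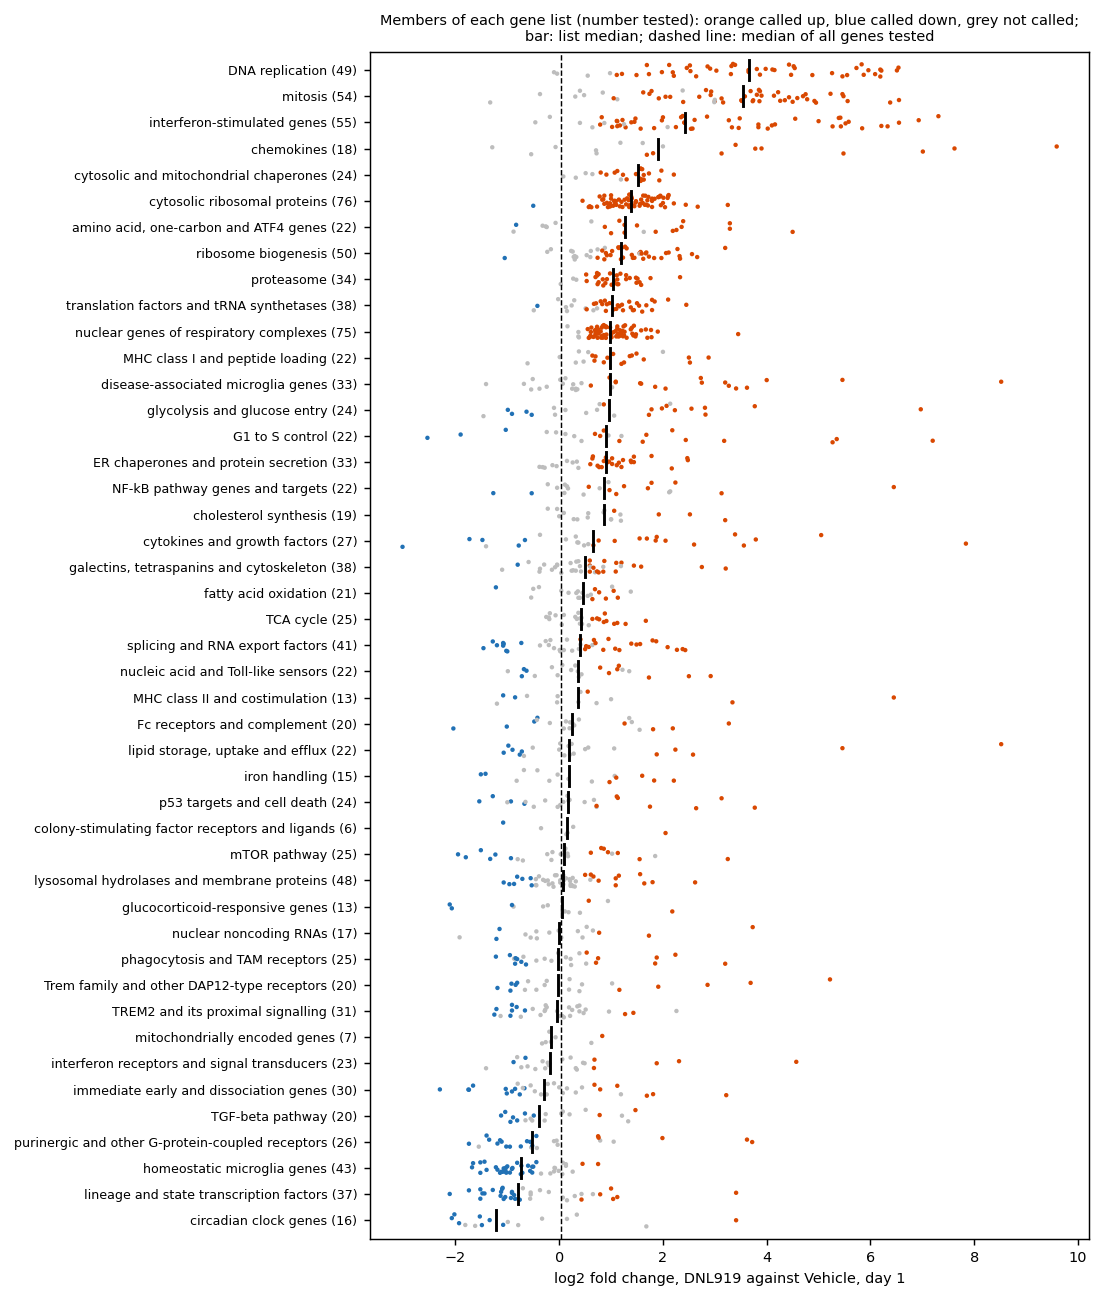
Log2 fold change between DNL919 and Vehicle (x axis) of the tested members of each gene list (y axis, number tested in brackets). Each point is a gene, orange where called up, blue where called down and grey where not called. The bar is the list's median and the dashed line the median of all genes tested (0.03). DNA replication, mitosis and interferon-stimulated genes lie farthest right, and circadian clock genes, transcription factors and homeostatic genes farthest left.

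The machinery of protein synthesis rose almost as a whole. Of 76 cytosolic ribosomal protein genes 75 rose and 1, Rps27, fell, with a median of 1.38. Rps2, a protein of the small subunit, lay between 49.1 and 76.4 CPM in Vehicle and between 163 and 418 CPM after DNL919 (2.21 ± 0.20, adjusted p = 2.79e-11), and Rpsa, another protein of the small subunit, rose by 2.09 ± 0.19 (adjusted p = 2.79e-11; median 82.9 to 377 CPM). Rps6, the target of S6 kinase below mTOR, rose by 3.25 ± 0.46 (adjusted p = 3.69e-07), from a median of 9.18 CPM (5.72 to 17.2) to 95.6 CPM (28.3 to 164). Rps27 had a log2 fold change of -0.50 ± 0.19 (adjusted p = 0.0404), and this call was lost without replicates 5 and 8 (-0.42), without DNL919 replicate 5 (-0.34) and without Vehicle replicate 1 (-0.44), 3 (-0.49) or 5 (-0.44). Ribosomal protein genes have many processed pseudogenes, among which reads may be divided. Replicate 5 was the lowest DNL919 library for 57 of the 75, with a list median of 0.53 over Vehicle against 1.01 to 1.76 in the others, and without replicates 5 and 8 the median was 1.58.

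Genes that build ribosomes rose in 35 of 50 cases, and translation factors and tRNA synthetases in 28 of 38, with 1 fall in each list. Nhp2, a protein of pseudouridylation particles, rose by 2.32 ± 0.24 (adjusted p = 3.52e-10; median 56.1 to 331 CPM), and Npm1, the nucleolar chaperone nucleophosmin, by 1.73 ± 0.19 (adjusted p = 1.74e-09; 119 to 404 CPM). Eif5a, the factor that carries hypusine, rose by 2.45 ± 0.22 (adjusted p = 2.68e-11; 111 to 654 CPM), and Srm, the synthase of the spermidine from which hypusine is made, by 2.19 ± 0.20 (adjusted p = 3.28e-11; 43.6 to 176 CPM). Polr1a, the largest subunit of RNA polymerase I, was the member of the first list that fell (-1.05 ± 0.29, adjusted p = 0.00415).

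Genes of protein folding and breakdown also rose. Of 24 cytosolic and mitochondrial chaperones 19 rose, of 33 genes of ER chaperones and secretion 24 rose, and of 34 proteasome genes 31 rose, with medians of 1.52, 0.90 and 1.03 and no fall in any of them. Hspe1, the mitochondrial co-chaperone HSP10, rose by 1.97 ± 0.20 (adjusted p = 4.84e-10; median 103 to 484 CPM), and Cct8, a subunit of the ring that folds actin and tubulin, by 1.58 ± 0.18 (adjusted p = 4.33e-09; 89.8 to 304 CPM). Sdf2l1, an ER stress-induced partner of chaperones, rose by 2.47 ± 0.26 (adjusted p = 5.02e-10; 91.6 to 583 CPM). Psmd14, the deubiquitinase of the proteasome lid, rose by 1.76 ± 0.20 (adjusted p = 2.24e-09; 57.3 to 200.2 CPM), and Psma6, a subunit of its core, by 1.58 ± 0.18 (adjusted p = 4.43e-09; 92.2 to 330.2 CPM). Under the noncoding covariate 13 proteasome, 16 chaperone and 7 ER genes were called up.

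Respiratory chain genes of the nucleus rose and those of mitochondrial DNA mostly did not pass the test. Of 75 nuclear genes 71 rose and none fell, with a median of 0.98. Atp5j, a subunit of ATP synthase, rose by 1.77 ± 0.19 (adjusted p = 9.88e-10), from between 140.5 and 199 CPM to between 372 and 866 CPM, and Uqcrb, a subunit of complex III, by 1.70 ± 0.17 (adjusted p = 2.03e-10; median 121 to 421 CPM). Of 7 tested mitochondrially encoded genes 1 rose, mt-Nd1 (0.83 ± 0.13, adjusted p = 2.32e-06), and the median was -0.16. All transcripts of the mitochondrial chromosome, also those outside this list, took 1.71% ± 0.432 of the counts after DNL919 (SD, n = 8) and 2.98% ± 0.734 in Vehicle (SD, n = 6; exact permutation p = 0.00266, adjusted p = 0.00333). The 13 genes of the list, tested or not, summed to between 4853 and 10036 CPM after DNL919 (median 8767). In Vehicle they summed to between 5692 and 9373 CPM (median 7635), so that the groups overlapped. Replicate 5 was the lowest DNL919 library for 58 of the 71 rising nuclear genes, with a list median of 0.27 over Vehicle against 0.78 to 1.36 in the other 7. Without replicates 5 and 8 the median was 1.09 and 71 rose.

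Of 24 tested genes of glycolysis and glucose entry 11 rose and 4 fell, with a median of 0.96, and replicate 8 was the lowest DNL919 library for all 11. Without replicates 5 and 8 11 rose and 3 fell, and the median was 0.74. Ldha, which makes lactate, rose by 1.98 ± 0.20 (adjusted p = 2.01e-10; median 136 to 581 CPM), Tpi1, triose phosphate isomerase, by 2.23 ± 0.25 (adjusted p = 3.14e-09; 80.2 to 434 CPM), and Pkm, pyruvate kinase, by 2.81 ± 0.32 (adjusted p = 2.59e-09; 59.0 to 369 CPM). The groups did not overlap for any of the 3. Pdk1, which inhibits the entry of pyruvate into mitochondria, fell by 0.99 ± 0.22 (adjusted p = 3.35e-04; 65.9 to 30.6 CPM), and Slc2a5, the fructose carrier of microglia, fell by 0.91 ± 0.32 (adjusted p = 0.0222), a call lost without Vehicle replicate 2 (-0.85) or 4 (-0.70) or DNL919 replicate 6 (-0.76). Of 25 genes of the TCA cycle 10 rose and none fell, led by Idh3a, a subunit of isocitrate dehydrogenase (1.67 ± 0.27, adjusted p = 3.56e-06). Of 21 genes of fatty acid oxidation 6 rose and 1 fell, a called share of 33.3% against 33.4% of all genes tested. These lists had medians of 0.06 and -0.14 under the noncoding covariate, against 0.43 and 0.45 without it.

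Of 22 tested genes of lipid storage, uptake and efflux 5 (22.7%) rose and 5 (22.7%) fell, against 19.0% and 14.4% of all genes tested. Ch25h, which makes 25-hydroxycholesterol and is itself induced by interferon, lay at 9.0 CPM or less in Vehicle (median 1.03) and between 15.2 and 682 CPM after DNL919 (median 534), with a log2 fold change of 8.52 ± 1.37 (adjusted p = 3.46e-06). It was 7.77 without Vehicle replicate 1 and 9.14 without Vehicle replicate 2. Lpl, lipoprotein lipase, rose by 5.46 ± 0.83 (adjusted p = 1.38e-06), from between 0 and 48.2 CPM to between 131 and 732 CPM, and this value was 4.54, 6.42 and 6.14 without Vehicle replicates 1, 4 and 5 in turn. Npc1, which exports cholesterol from lysosomes, fell by 1.07 ± 0.26 (adjusted p = 0.00121; median 56.2 to 27.3 CPM). Apoe, which encodes the main apolipoprotein of the brain, spread too far to be called. It lay between 358 and 2087 CPM in Vehicle (median 1966) and between 363 and 3867 CPM after DNL919 (median 895), with a log2 fold change of -0.68 ± 0.34 (adjusted p = 0.120). Replicate 5 had the highest value, and the log2 fold change was -1.10 without replicate 5, -1.13 without replicates 5 and 8, -1.19 in females alone, -1.52 with depth as a covariate and -1.85 with the noncoding covariate, called each time. Of 19 genes of cholesterol synthesis 4 rose and none fell, with none called under the noncoding covariate.

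Amino acid, one-carbon and ATF4 genes rose in 14 of 22 cases, with 1 fall. Psat1, an enzyme of serine synthesis, rose by 2.36 ± 0.28 (adjusted p = 1.11e-08), from between 9.31 and 24.3 CPM to between 47.1 and 109 CPM, and Mthfd2, a mitochondrial folate enzyme, by 2.39 ± 0.37 (adjusted p = 1.50e-06; median 13.7 to 80.2 CPM). Among 15 tested genes of iron handling, Tfrc, the mouse transferrin receptor that here carries human sequence, rose by 2.21 ± 0.50 (adjusted p = 5.83e-04; 4.82 to 25.8 CPM). Fth1, the ferritin heavy chain, rose by 0.97 ± 0.17 (adjusted p = 1.65e-05; 5391 to 11060 CPM), and Slc40a1, the iron exporter ferroportin, fell by 1.42 ± 0.25 (adjusted p = 1.89e-05; 121 to 39.2 CPM). The calls of Tfrc and Slc40a1 were lost in males alone, and that of Tfrc also with the noncoding covariate.

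Genes of disease-associated microglia rose in 17 of 33 cases and none fell, with a median of 0.97. Without replicates 5 and 8 the median was 1.06, with 18 rises and 2 falls. Cst7, a cystatin of activated microglia, rose from a median of 30.7 CPM (22.1 to 50.2) to 542 CPM (210.3 to 766), by 4.00 ± 0.46 (adjusted p = 3.40e-09). Gpr84, a receptor of medium-chain fatty acids, lay between 93.7 and 235 CPM in Vehicle and between 834 and 2565 CPM after DNL919 (3.62 ± 0.25, adjusted p = 7.21e-15). Cd9, a tetraspanin, rose by 1.58 ± 0.20 (adjusted p = 3.93e-08; median 549 to 1744 CPM), and Cd52, a small surface protein, by 2.73 ± 0.30 (adjusted p = 2.05e-09; 261 to 2076 CPM). Itgax (CD11c), Axl and Lgals3 rose by 3.27 ± 0.76, 3.20 ± 1.05 and 2.75 ± 0.82 (adjusted p = 7.41e-04, 0.0152 and 0.00758). In males alone the values were 2.05, 3.71 and 1.78 and were not called (adjusted p = 0.196, 0.240 and 0.208). In females alone, with as many libraries, these calls were kept. The rise of Itgax was 2.63 without Vehicle replicate 1. With the noncoding covariate 8 members were called up and 6 down, and the median was 0.44. Tspo and Aif1, which encode proteins used to image or stain microglia, rose by 2.30 ± 0.24 (adjusted p = 7.05e-10; 66.6 to 323 CPM) and 0.59 ± 0.15 (adjusted p = 0.00205; 1777 to 2861 CPM).

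Homeostatic genes fell in 30 of 43 cases, and 2 rose, with a median of -0.74. P2ry12, the purinergic receptor that guides processes to injury, lay between 2980 and 4820 CPM in Vehicle (median 4192) and between 1001 and 2792 CPM after DNL919 (median 1443), a log2 fold change of -1.40 ± 0.19 (adjusted p = 8.89e-08). Ltc4s, the synthase of leukotriene C4, fell by 1.68 ± 0.17 (adjusted p = 3.46e-10), from between 1345 and 1656 CPM to between 269 and 1269 CPM. Entpd1, the ectonucleotidase CD39, fell by 1.19 ± 0.16 (adjusted p = 1.51e-07; median 359 to 156 CPM), and Mertk, a receptor for dying cells, by 1.22 ± 0.26 (adjusted p = 3.12e-04; 160.3 to 75.7 CPM). Cx3cr1 and Tmem119, chosen after their values were seen, had log2 fold changes of -0.44 ± 0.16 (adjusted p = 0.0260) and 0.26 ± 0.32 (adjusted p = 0.583). The 2 that rose were Pros1 (0.75 ± 0.25, adjusted p = 0.0184) and Lpcat2 (0.45 ± 0.18, adjusted p = 0.0442), and both calls were lost without replicates 5 and 8 (0.56 and 0.36). Pros1 was also not called without Vehicle replicate 1 (0.58) or 5 (0.62) or DNL919 replicate 5 (0.58). Lpcat2 was called without Vehicle replicate 4 or DNL919 replicate 1, 6 or 8 and lay between 0.35 and 0.46 without any other single library. The call of Cx3cr1 was lost without Vehicle replicate 1 (-0.44), 2 (-0.42) or 6 (-0.44) or DNL919 replicate 2 (-0.39) or 6 (-0.39), and Tmem119 had a log2 fold change of -1.53, called, with the noncoding covariate. Replicate 5 was the highest DNL919 library for 16 of the 30 falling genes and replicate 8 for 14, and without both the median was -0.99, with 31 falls and no rise. With the noncoding covariate the median was -0.95 and 30 members were called down.

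Transcription factors of lineage and state fell in 19 of 37 cases and rose in 6, with a median of -0.80. Maf fell by 2.11 ± 0.23 (adjusted p = 1.62e-09), from between 542 and 1149 CPM to between 106 and 508 CPM, and Sall1, which maintains microglial identity, fell by 1.52 ± 0.21 (adjusted p = 1.66e-07; median 212 to 73.4 CPM). Mef2a fell by 1.44 ± 0.17 (adjusted p = 9.05e-09; 357 to 119 CPM), and Sox4 by 2.25 ± 0.36 (adjusted p = 3.41e-06; 129.7 to 20.3 CPM). Every DNL919 library lay below every Vehicle library for all 4. Id2, an inhibitor of helix-loop-helix factors, rose by 1.47 ± 0.21 (adjusted p = 4.52e-07; 191 to 436 CPM). With the noncoding covariate the median of the list was -0.21, and the calls of Sall1 and Sox4 were lost.

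**Figure D4:**
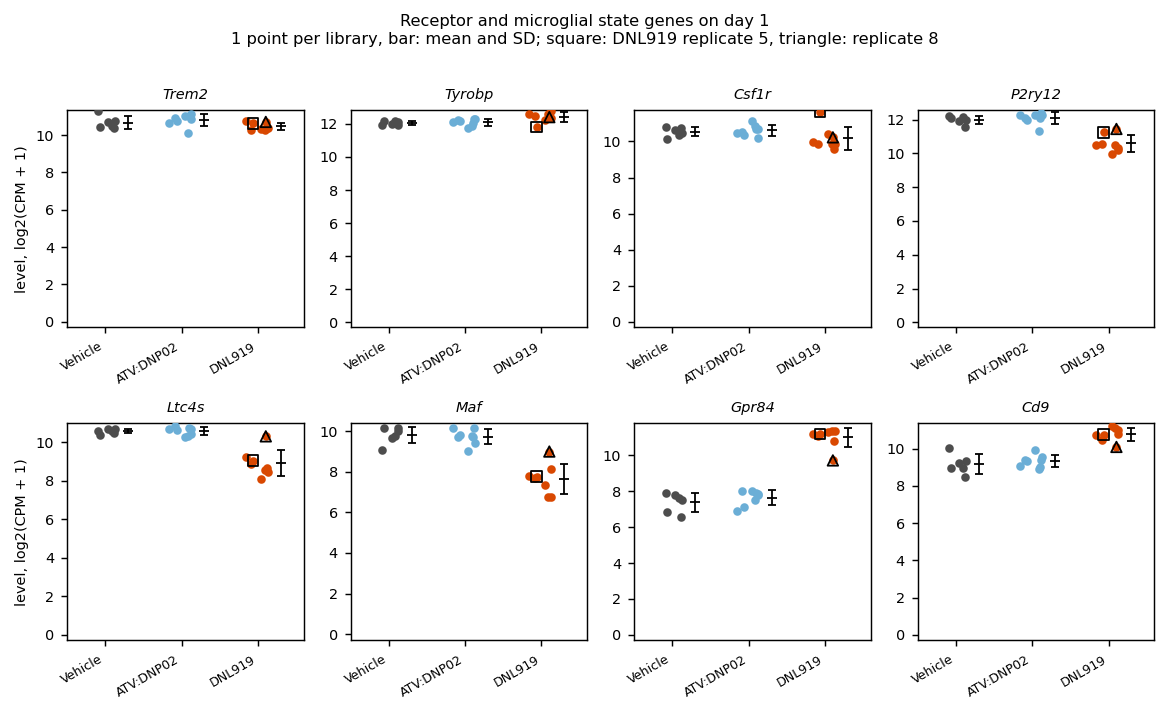
Levels of 8 receptor and microglial state genes in every library of day 1 (y axis, log2 of CPM + 1; each point is 1 library, the bar is the mean and SD of the log2 values). Trem2, Tyrobp and Csf1r overlap between Vehicle and DNL919, P2ry12, Ltc4s and Maf lie lower in every DNL919 library and Gpr84 and Cd9 higher, and the square of replicate 5 is the highest DNL919 point for Csf1r.

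Of the 31 tested genes of the receptor and of its proximal signalling 2 rose and 7 fell, a called share of 29.0% against 33.4% of all genes tested, and the median was -0.04, or -0.26 without replicates 5 and 8. Mouse Trem2 lay between 1320 and 2470 CPM in Vehicle (median 1543) and between 1215 and 1756 CPM after DNL919 (median 1321), with a log2 fold change of -0.24 ± 0.17 (adjusted p = 0.293). It was called, and lower, in 4 alternatives, with -0.38 when scaled by library totals, -0.40 without a filter on low counts, -0.57 with depth as a covariate and -1.10 with the noncoding covariate. Its adaptor Tyrobp had a log2 fold change of 0.35 ± 0.15 (adjusted p = 0.0611), which was called in DESeq2 (0.35), was 0.42 and called without replicates 5 and 8, and 0.44 without DNL919 replicate 5 and 0.38 without Vehicle replicate 5, called both times. The kinase Syk fell by 1.25 ± 0.34 (adjusted p = 0.00316; median 36.4 to 12.9 CPM), and Inpp5d, the phosphatase SHIP1 that limits signalling, fell by 1.21 ± 0.22 (adjusted p = 2.49e-05; 537 to 205 CPM). Plcg2 had a log2 fold change of -0.36 ± 0.27 (adjusted p = 0.327). Among the rises was that of the adaptor Lat2 (1.27 ± 0.19, adjusted p = 7.79e-07). The calls of Syk and Inpp5d were lost under the noncoding covariate.

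Genes of the mTOR pathway were divided, with 7 rises (28.0%) and 6 falls (24.0%) among 25, against 19.0% and 14.4% of all genes tested. Mtor itself was low, between 2.07 and 15.5 CPM in Vehicle and between 2.73 and 13.3 CPM after DNL919 (0.03 ± 0.60, adjusted p = 0.976). Rptor and Rictor, the scaffolds of its complexes, fell by 1.51 ± 0.29 (adjusted p = 6.91e-05; median 70.3 to 27.5 CPM) and by 1.80 ± 0.36 (adjusted p = 1.07e-04; 35.0 to 7.51 CPM), while Rheb, the GTPase that activates mTOR, rose by 0.94 ± 0.16 (adjusted p = 5.64e-06; 95.6 to 178 CPM). The calls of Rptor and Rictor were lost with the noncoding covariate.

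Csf1r, the receptor for the growth factor on which microglia depend, was not called. It lay between 1138 and 1807 CPM in Vehicle (median 1502) and between 766 and 3151 CPM after DNL919 (median 974), with a log2 fold change of -0.35 ± 0.22 (adjusted p = 0.246). Replicate 5 held the value of 3151 CPM, and the log2 fold change of Csf1r was -0.60 without replicate 5, -0.66 without replicates 5 and 8, -0.57 in females alone, -0.96 with depth as a covariate and -0.95 with the noncoding covariate, called each time. Its ligand Csf1 rose by 2.05 ± 0.36 (adjusted p = 1.40e-05; median 14.3 to 46.5 CPM), and Csf3r, the receptor of granulocyte colony-stimulating factor, fell by 1.08 ± 0.21 (adjusted p = 9.24e-05; 191 to 84.5 CPM).

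Among 20 tested Trem-family and DAP12-type receptors 5 (25.0%) rose and 5 (25.0%) fell, against 19.0% and 14.4% of all genes tested. Cd300lf rose from at most 1.03 CPM to between 3.63 and 25.2 CPM (5.22 ± 0.89, adjusted p = 8.90e-06) and Pilra by 1.91 ± 0.27 (adjusted p = 3.98e-07; median 58.7 to 243 CPM), while the inhibitory sialic acid receptor Cd33 fell by 0.94 ± 0.15 (adjusted p = 2.61e-06; 306 to 141 CPM). Of the Fc receptors, Fcgr1, the high-affinity receptor for IgG, rose by 1.26 ± 0.18 (adjusted p = 2.94e-07; 163 to 431 CPM), and Fcgr3 fell by 1.01 ± 0.19 (adjusted p = 3.61e-05; 2477 to 1248 CPM). Of the receptors for complement C5a, C5ar1 rose by 1.81 ± 0.22 (adjusted p = 2.08e-08), from between 179 and 385 CPM to between 616 and 1277 CPM, and C5ar2 fell by 2.04 ± 0.39 (adjusted p = 6.75e-05), from between 14.5 and 30.2 CPM to between 1.36 and 9.97 CPM. Of 26 purinergic and other G-protein-coupled receptors 13 fell and 5 rose, with a median of -0.53. Lpar6, a receptor for lysophosphatidic acid, fell by 1.11 ± 0.15 (adjusted p = 8.67e-08; 509 to 231 CPM), and Gpr65, an acid sensor, rose by 1.99 ± 0.33 (adjusted p = 5.57e-06; 28.6 to 115 CPM). The TGF-beta pathway had 7 falls and 2 rises among 20, with a fall of the receptor Tgfbr1 by 1.12 ± 0.17 (adjusted p = 1.39e-06; 2086 to 859 CPM) that was not called with the noncoding covariate.

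The 48 tested lysosomal genes had a median of 0.08. Of them 11 (22.9%) rose and 7 (14.6%) fell, against 19.0% and 14.4% of all genes tested. Ctsz and Ctsc, cysteine cathepsins, rose by 1.56 ± 0.19 (adjusted p = 1.16e-08; median 1199 to 3604 CPM) and 1.64 ± 0.22 (adjusted p = 9.36e-08; 765 to 2552 CPM), and Cstb, an inhibitor of cathepsins, by 1.80 ± 0.20 (adjusted p = 1.63e-09; 111 to 449 CPM). With the noncoding covariate the median was -0.68, 1 member was called up and 21 down, and Ctsz and Ctsc were not called. Of 38 galectins, tetraspanins and cytoskeletal genes 15 rose and 1 fell, led by Capg, an actin-capping protein that rose by 3.21 ± 0.34 (adjusted p = 5.64e-10; 15.7 to 179 CPM).

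Of 16 tested circadian genes 7 fell and 1 rose, with a median of -1.21, the lowest among the 45 lists other than markers. Per1, a repressor of the clock, fell by 2.07 ± 0.40 (adjusted p = 6.27e-05), from between 27.4 and 128 CPM to between 6.27 and 22.5 CPM, and Tef, an output factor, by 1.53 ± 0.39 (adjusted p = 0.00181; median 20.9 to 6.62 CPM). No circadian gene was called down under the noncoding covariate and 1 was called up. Relative to the Vehicle mean, the list median of single Vehicle libraries ranged from -0.77 to 0.60 and that of DNL919 libraries from -1.46 to -0.05, so that the groups overlapped. Collection times are not given in the labels. Of 13 glucocorticoid-responsive genes 3 fell and 2 rose. Tsc22d3, which encodes GILZ, fell by 2.11 ± 0.25 (adjusted p = 9.24e-09), from between 532 and 724 CPM to between 62.7 and 435 CPM, and Nr3c1, the glucocorticoid receptor, fell by 0.91 ± 0.19 (adjusted p = 1.89e-04; 142 to 69.6 CPM). Of 30 immediate early genes, which tissue dissociation can induce, 10 (33.3%) fell and 6 (20.0%) rose. Fosb fell by 2.30 ± 0.33 (adjusted p = 4.96e-07; 229 to 54.7 CPM), and Dusp2, a phosphatase of MAP kinases, rose by 3.22 ± 0.42 (adjusted p = 7.56e-08; 16.7 to 133 CPM).

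Of 41 splicing and export factors 19 rose and 9 fell. Alyref, which couples splicing to export, rose by 2.43 ± 0.28 (adjusted p = 2.96e-09; median 20.7 to 119 CPM), and Ddx39, a helicase of the same step, by 2.27 ± 0.28 (adjusted p = 1.52e-08; 33.8 to 185 CPM). Clk1, a kinase of splicing factors, fell by 1.20 ± 0.16 (adjusted p = 1.17e-07; 468 to 194 CPM), and Ddx5 by 1.02 ± 0.12 (adjusted p = 1.77e-08; 761 to 382 CPM). Malat1, an abundant nuclear noncoding RNA, lay between 41185 and 77579 CPM in Vehicle (median 62173) and between 14321 and 43515 CPM after DNL919 (median 26535), a log2 fold change of -1.21 ± 0.18 (adjusted p = 7.92e-07), and is itself part of the noncoding share that the covariate holds. Gas5, a host of small nucleolar RNAs, rose by 0.77 ± 0.17 (adjusted p = 4.24e-04; 115 to 195 CPM).

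Among the falls of the largest size, several genes belong to none of the lists above. Csmd3, a large membrane protein with complement-type domains, fell by 2.65 ± 0.33 (adjusted p = 2.19e-08), from between 54.2 and 212 CPM to between 7.64 and 39.9 CPM. Agmo, which cleaves ether lipids, fell by 2.08 ± 0.27 (adjusted p = 4.08e-08), from between 45.2 and 72.4 CPM to between 6.60 and 30.8 CPM, and Abca9, a lipid transporter of its family, by 2.08 ± 0.31 (adjusted p = 1.04e-06; 87.2 to 18.9 CPM). The unannotated transcripts RP24-255G23.1 and RP24-213G21.1 fell by 2.37 ± 0.34 and 2.32 ± 0.23 (adjusted p = 3.78e-07 and 2.03e-10). DNL919 and Vehicle libraries did not overlap for any of these 5.

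The 4 batches gave medians of the same sign in some lists and not in others. Medians of MHC class II and costimulation genes were 0.49, 0.77, -0.92 and 0.42 in batches 1 to 4, and those of circadian genes -0.42, -0.91, -1.15 and -1.92. Medians of interferon-stimulated genes within batches 1 to 4 were 2.78, 2.93, 2.43 and 1.41, those of DNA replication 3.94, 3.72, 3.20 and 3.38, those of ribosomal proteins 1.56, 1.59, 1.03 and 1.47, and those of homeostatic genes -1.03, -0.93, -0.49 and -0.59. Within a single batch, with 1 or 2 Vehicle libraries against 2 of DNL919, 646, 903, 12 and 7 genes were called up and 730, 499, 1 and 1 down in batches 1 to 4. In a fit with sex by group terms, females had 1367 genes called up and 899 down, and males 916 and 600. The difference between the sexes, tested as such, was called in 0 genes (0% of 11189; smallest adjusted p = 0.998), with 445 genes at an unadjusted p under 0.05.

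**Figure D5:**
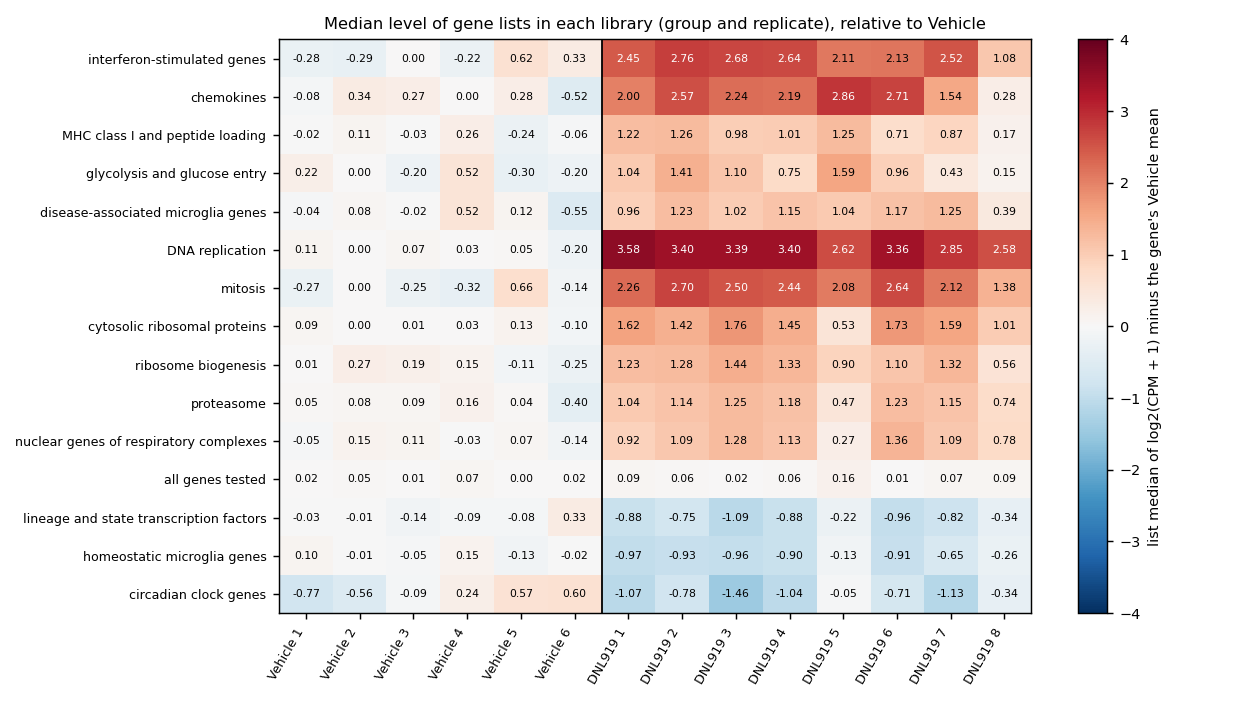
Median level of 15 gene lists (rows) in each Vehicle and DNL919 library (columns, by group and replicate), as log2 of CPM + 1 minus the gene's Vehicle mean. The DNL919 columns share the signs of each row, with replicate 8 at 1.08 for interferon-stimulated genes and 0.28 for chemokines, and replicate 5 at 0.53 for ribosomal proteins, 0.27 for respiratory genes and -0.13 for homeostatic genes.

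Replicates 5 and 8 differed from the other 6 libraries in different lists. Replicate 8 was the lowest DNL919 library in 42 of 48 interferon-stimulated, 8 of 10 chemokine and 11 of 11 glycolytic rises, but in 11 of 45 replication and 9 of 71 respiratory rises. Replicate 5 was the lowest in 4, 1 and 0 of the first 3 lists and in 25 and 58 of the last 2. Replicate 8 also had the highest noncoding share of the 8 (5.29%), and what part that had in its levels was not tested.

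The isotype control allowed the antibody vehicle to be set beside the solution. ATV:DNP02 against Vehicle, which share the Vehicle libraries with the comparison above, gave 0 called genes (0% of 11189) in limma-voom, 2 in DESeq2, and 498 at an unadjusted p under 0.05, with a smallest adjusted p of 0.886. List medians of that comparison were -0.04 for interferon-stimulated genes, -0.01 for chemokines, -0.08 for DNA replication, 0.10 for ribosomal proteins and 0.01 for homeostatic genes. DNL919 against ATV:DNP02, which share the DNL919 libraries with the main comparison, gave 4007 called genes (35.8%), 2329 up and 1678 down. Log2 fold changes of ATV:DNP02 against Vehicle were -0.70 for Cxcl10, -0.61 for Ccl12, 0.16 for Ifitm3, -0.84 for Mcm6, -0.90 for Cst7 and 0.10 for P2ry12, where those of DNL919 against Vehicle were 7.62, 5.48, 4.16, 3.35, 4.00 and -1.40.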

How the data were processed

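RNA-seq of sorted CD11b-positive cells was analysed from gene counts. The authors aligned reads with STAR and counted them per gene with featureCounts (Subread 1.6.2) on GRCm38.p6, per the submitters' processing notes. The annotation release is not given in the sources used here. In the deposited sheet, counts of 100 or more are rounded to 2 significant digits, and these values make up 91.3% of all counts. The authors also deposited a library size and a scaling factor (a ratio) per library, of which the factor was used only as an alternative to TMM. Their sheet of normalized CPM was not used.

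The main fit was limma-voom in R 4.3.3, with limma 3.58.1 and edgeR 4.0.16, over all 38 libraries, with group and batch as terms, TMM scaling and filterByExpr (minimum count 10, total 15, proportion 0.7), which kept 11189 of 53801 genes. DNL919 day 1 libraries held 33.3 M counts and Vehicle day 1 libraries 13.6 M. Folds of genes without a Vehicle count set the pooled counts of the other group against a floor of 3 counts over the Vehicle group, which covers counting error only. Library measures were compared by exact permutation over all allocations. Alternatives were edgeR's quasi-likelihood test, DESeq2 1.42.0, other scalings, filters and covariates, libraries thinned to equal totals, each sex, each batch, and leaving out each library. The fits were tested on simulated data.

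Members and gene lists were chosen with earlier results of these data known. Genes were named where they were among the 10 largest called rises or falls with no overlap and at least 50 CPM in the higher group, among the up to 3 smallest p per list and direction, or on a short fixed list of genes of the pathway and of microglial states. The text gives a part of the genes so named, and other named genes are marked as chosen after their values were seen. Marker genes and genes with shown promoters were also given. Some genes are not reported here.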

Additional observations from a re-analysis of the deposited data

Results flagged for a closer look

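Within the 8 DNL919 or 6 Vehicle libraries of day 1, 39 of 316 groups of values examined held 1 library whose gap to the next exceeded Dixon's 95% limit. Chance gives about 1 in 20 for independent groups of normal values. These groups share the same libraries, and some were at 0 in all libraries but 1, so no excess over chance is read. Values below are the CPM of that library, with the nearest other library of its group in brackets.

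DNL919 replicate 8 was the library apart in 14 of these groups. It was the highest DNL919 library for Abca9 (39.9, nearest 25.0), Cdkn1b (16.7, nearest 8.44), Inpp5d (471, nearest 229), Ltc4s (1269, nearest 608), Maf (508, nearest 279.7), Npc1 (83.4, nearest 32.8) and RP24-255G23.1 (138, nearest 44.4). The same held for Rictor (31.2, nearest 14.6), Sall1 (152, nearest 83.1), Tgfbr1 (1958, nearest 1032) and Tsc22d3 (435, nearest 210.1). It was the lowest for Gpr84 (834, nearest 1798), Srm (97.9, nearest 162) and Tspo (127, nearest 301).

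DNL919 replicate 5 was the highest for Apoe (3867, nearest 1201), Csf1r (3151, nearest 1344), Il16 (77.3, nearest 29.4), Pros1 (258, nearest 149), Slc2a5 (272, nearest 109), Sox4 (70.2, nearest 31.2), Cx3cr1 (2005, nearest 1195) and Tmem119 (2864, nearest 1119). Replicate 2 was the highest for Lgals3 (464, nearest 213) and replicate 1 for Lpl (732, nearest 372). Ifnb1 reached 218 CPM in DNL919 replicate 2, where the nearest library had 49.5 CPM.

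In Vehicle, replicate 4 was the highest for Cd14 (1446, nearest 859), Pros1 (166, nearest 90.0), Rps6 (17.2, nearest 9.83) and Trem2 (2470, nearest 1719), and replicate 5 for Agmo (72.4, nearest 54.2), Ccne2 (8.79, nearest 0) and Cd52 (672, nearest 286). Replicate 6 was the highest for Mertk (358, nearest 176), Nr3c1 (229.9, nearest 160.3) and Sall1 (349, nearest 217) and the lowest for Tnf (63.9, nearest 193). Single libraries also held the only Vehicle counts of Ifnb1 (3.31 CPM) and Mki67 (0.517 CPM), and the highest of Tmem119 (1356, nearest 679).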

How the results depend on the processing

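Against 2127 genes called up and 1613 down, edgeR called 1834 and 1509 and DESeq2 1954 and 1783. A covariate for the noncoding share left 937 and 670, and one for depth 1566 and 917. Females alone gave 1644 and 1303, and males alone 487 and 282. Within batches 1 to 4, 646, 903, 12 and 7 genes were called up and 730, 499, 1 and 1 down. Calls down numbered 8462 without a low-count filter (of 25246 tested), 948 at an adjusted p under 0.01 and 1039 at a 2-fold limit. Leaving out single libraries gave between 1829 and 2150 up and between 1296 and 1729 down. ATV:DNP02 against Vehicle, with 0 calls, had 2 up in DESeq2 and 1 up and 3 down without the filter. Other settings stayed within 1.5 times the counts. Each sex alone and single batches hold fewer libraries, and no filter means more genes. Females alone and males alone held the same number of DNL919 libraries and of Vehicle libraries. DNL919 replicates 5 and 8 were both male. The cause of these differences was not tested.

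Of 145 called genes named above, 143 kept their sign in every alternative and 80 also their call. Pros1 and Lpcat2 turned to -0.54 and -0.66 with the noncoding share and to -0.14 and -0.01 with depth, and Tmem119, not called, to -1.53 with the noncoding share. The noncoding share ended 45 of the 145 calls, males alone 40, depth 11, the missing filter 9 (among them Aif1 and Fth1), edgeR 4 and DESeq2 2. Calls ended by the noncoding share that are not stated above were those of Abca9, Aif1, Axl, Bcl2a1b, Bcl2l11, C5ar2, Cd274, Cd9, Csf3r, Cdkn1b, Fcgr1, Fosb, Idh3a, Irf2, Lgals3, Malat1, Mertk, Nfkbia, Npc1, Nr3c1, Pdk1, Per1, Polr1a, Rel, Rps27, Tef and Tlr7, and those of Oasl1, Ifnb1, Cxcl13, Cxcl9 and Il6. Such losses differed in size: Il6 and Cdkn1b kept log2 fold changes of 1.88 and -1.53 (adjusted p = 0.0802 and 0.104), while Per1 and Irf2 came to -0.09 and -0.06. Library measures kept their direction and call without any single Vehicle library. No paired analysis was possible because the labels give no replicate numbers, and batch was a term of the fit. DNL919 libraries were deeper than Vehicle libraries, and genes with few counts were limited by the 13.6 M counts of the Vehicle group.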

Other observations

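Of the genes tested, 48 had no count in any Vehicle library. Another 176 genes fell under the filter on low counts with no Vehicle count and at least 30 counts over the DNL919 libraries. They were not tested, and are counted in none of the calls above.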
